A study of Mus musculus with 36 samples.

Results

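HP1γ-deficient CD4+ T cells were compared before and after their activation by an allogeneic graft. The comparison set 3 libraries of Tconv against 3 libraries of naive cells, all of the HP1g KO genotype, and the libraries were chosen by their group labels alone. They are 6 of the 36 RNA-seq libraries of the series, which hold 12 groups of 3. In the HP1g line the gene of HP1γ, Cbx3, is flanked by loxP sites and is removed by a Cre recombinase under the Cd4 promoter, which acts in developing T cells and not in other tissues. HP1g WT cells came from littermates that carried the floxed gene without Cre. The mice were males of a mixed 129/Sv x C57BL/6 background, aged 6 to 12 weeks. Naive cells were unstimulated splenic CD4+ T cells with little or no CD44, taken by magnetic depletion of all other cells. Tconv started as such naive cells, which were injected together with equal parts of C57BL/6 J and semi-allogeneic B6D2F1 bone marrow into lethally irradiated B6 hosts, without regulatory T cells (Treg). After 3 weeks CD4+ cells were enriched from the host spleen and injected T cells were sorted by their surface alleles and by Vβ6, a T cell receptor chain that recognises a superantigen of the B6D2F1 cells. The labels do not state whether the replicates are separate mice, so the p-values measure the spread between these libraries, which may be technical in part. Naive and Tconv libraries differ in their isolation and carry separate number series in the labels, so that activation, time in an irradiated host, isolation and library set cannot be told apart.

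A naive CD4+ T cell circulates between blood and lymphoid organs and is held in a resting state by transcription factors such as TCF1, LEF1 and KLF2. Recognition of a foreign antigen makes it divide and take up the programme of a helper lineage, of which Th1 cells, with the transcription factor T-bet and the cytokine IFN-γ, are the best known in graft rejection, and prolonged antigen exposure adds inhibitory receptors such as PD-1. HP1γ, together with HP1α (Cbx5) and HP1β (Cbx1), binds methylated histone H3 and helps to keep heterochromatin compact.

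The 6 libraries held 43474019 to 55890461 estimated counts and 21244 to 22707 detected genes each. Levels are CPM, the counts relative to the size of the library after TMM normalisation, and where values of the 3 libraries are given they follow the order of the replicate numbers. A floor of 3 counts corresponded to 0.0537 to 0.0690 CPM in a library, which covers counting error only. Transcripts of the Vβ6 segment, Trbv19, made up 82.1%, 87.8% and 68.3% of all Trbv counts in Tconv against 9.22%, 9.30% and 9.69% in naive cells, as the sort requires, and this gene, Cd44 and Cd4, which also served to isolate the cells, are no findings here. The 14 transcripts that define CD4+ αβ T cells, among them Cd3e, Lck and Trac, summed to 10200 to 12140 CPM in naive libraries and to 10170, 10460 and 10010 CPM in Tconv, and none of the 14 passed the test in either direction. Tconv replicate 1 stood apart from the other Tconv. The chi-square statistic per gene was 146 and 127 between it and replicates 2 and 3 but 20.4 between those, and among 9903 genes with at least 5 CPM in Tconv 172 were more than 1 log2 unit above and 344 more than 1 below both others in this library, while 63 were that far apart between replicates 2 and 3. The libraries of the naive group differed by 25.5 to 32.6 per gene. The results that rest on this library are given below with and without it.

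The targeted gene was examined before all others. Cbx3 (ENSMUSG00000029836, GRCm39 chr6:51447082-51460691, plus strand) was at 64.7, 68.35 and 73.6 CPM in HP1γ-deficient Tconv and at 69.0, 80.8 and 64.5 CPM in HP1γ-deficient naive cells. The ranges overlapped, and the log2 fold change was −0.03 (SE 0.11, adjusted p = 0.852 in edgeR's quasi-likelihood test, adjusted after Benjamini and Hochberg). All 6 values lay below the lowest HP1g WT library, the WT ranges being 86.6 to 106 CPM in Tconv and 106.6 to 199.5 CPM in naive cells. Counts per gene do not tell a transcript that lacks the floxed part from an intact one. By western blot the study reported an almost complete loss of HP1γ protein in naive CD4+ T cells of this line. Cbx1, the gene of HP1β, had a log2 fold change of −0.13 and was not called. Cbx5, the gene of HP1α, was at 21.5, 54.4 and 52.3 CPM in Tconv against 21.9, 20.1 and 18.9 CPM in naive cells. It rose by 1.10 on the log2 scale (SE 0.34, adjusted p = 0.0404, same test), yet Tconv replicate 1 lay among the naive values. Without this replicate the change was 1.42 (adjusted p = 1.11e-07), and without any other of the 6 libraries the adjusted p was between 0.0975 and 0.118, so the call rests on each of them.

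Expression differed between Tconv and naive cells in 3668 of the 15912 genes tested, or 23.1%. Calls required an adjusted p under 0.05 and a log2 fold change above 1 in size. Below, activation is short for the comparison of Tconv with naive cells, whatever the cause of a difference. Higher in Tconv were 2506 genes, 15.7% of those tested, and 1162 genes, 7.30%, were lower. These shares are the background against which the gene groups below are read. The adjusted p alone was under 0.05 for 6538 genes, and the median log2 fold change over all tested genes was 0.02. The rises reached further than the falls: 635 genes rose and 64 fell by more than 5 on the log2 scale, and the median change of called genes was 2.85 upward and −1.89 downward. In 138 of the genes that rose all naive libraries were at 0, and in 20 that fell all Tconv libraries were at 0. The 2 groups of libraries did not overlap in 3639 of the 3668 called genes. With 3 libraries in each group this follows largely from the thresholds of a call and adds no support to it. The share over all tested genes is not given. In bulk RNA a rise in the share of cells that express a gene and a rise of its level per cell cannot be told apart, and this holds for every change below. Without Tconv replicate 1 the test called 4473 genes and kept 3525, or 96.1%, of the 3668.

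**Figure D1:**
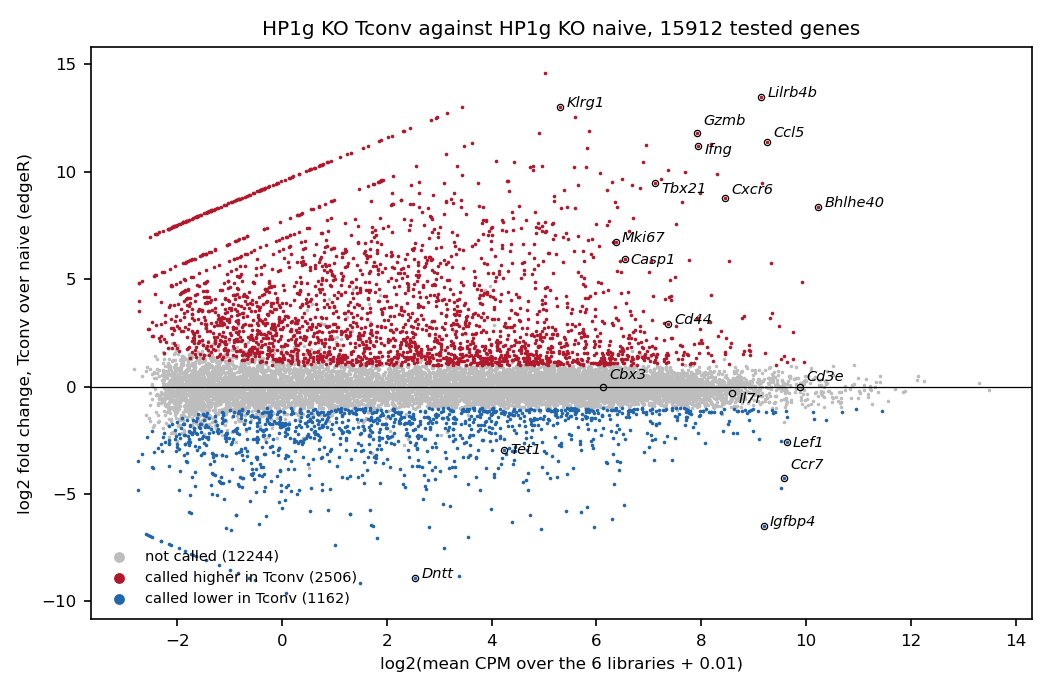
Each point is a gene tested in HP1γ-deficient Tconv against naive cells, with log2 of the mean CPM over the 6 libraries plus 0.01 on the x axis and the fitted log2 fold change on the y axis. The 2506 genes called higher spread further from 0 than the 1162 called lower, and the diagonal streak at the upper left holds genes without counts in naive cells.

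Ranked here are called genes with a mean of 5 CPM or more and no overlap between the groups, receptor segments and predicted genes aside. Their highest fold change was that of Lilrb4b (ENSMUSG00000112023, GRCm39 chr10:51356728-51362799, plus strand), which encodes a leukocyte immunoglobulin-like receptor. It was at 1137, 1082 and 1173 CPM in Tconv and at 0.106, 0.0749 and 0.112 CPM in naive cells, a log2 fold change of 13.46 (SE 0.19, adjusted p = 8.406e-09, edgeR quasi-likelihood test). The 3 Tconv libraries lay close together, far above naive cells. Lilrb4a, its neighbour and near copy with which it can share reads, was at 565, 575 and 604 CPM and rose by 11.28. Klrg1 (GRCm39 chr6:122246981-122259914, minus strand), the gene of an inhibitory lectin of terminally differentiated T cells, was at 62.7, 88.2 and 86.1 CPM in Tconv. Naive libraries held 1 count of it in all, so its ratio of counts was 11060 with a 95% counting interval of 1984 to 436800. Il22, which encodes a cytokine that acts on epithelia, was at 21.6, 20 and 11.2 CPM in Tconv and had no count in naive libraries, so it was at least 836-fold higher, counted against a floor of 3 counts over the group. On the same count Arnt2 was at least 720-fold, Stk32c at least 703-fold and Smoc2 at least 460-fold higher. Spp1, the gene of osteopontin, and Ccl1, a chemokine gene, complete the 8 genes with the highest fold changes under these conditions. Spp1 varied most among them, with 3.10, 254.5 and 32.5 CPM in Tconv (ratio of counts 6583, interval 1822 to 54360, adjusted p = 0.0157), and its adjusted p without naive replicate 1 was 0.0666. Its fitted log2 fold change was 12.52, and 10.07 without Tconv replicate 2. Ccl1 was at 17, 23.2 and 2.80 CPM, at least 680-fold higher, and was no longer called without Tconv replicate 1 (adjusted p = 0.201).

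Under the same conditions the lowest fold change was that of Dntt, the gene of terminal transferase, which is active in developing lymphocytes. It was at 10.8, 12.9 and 11.04 CPM in naive cells, and Tconv held 3 counts of it, all in replicate 3, so the ratio of naive over Tconv counts was 546 (95% counting interval 186 to 2650). Adh1, an alcohol dehydrogenase, fell by 8.83 on the log2 scale (9.78 without Tconv replicate 2), Dapk1, a death-associated kinase, by 6.99, Sox4, a transcription factor of progenitor cells, by 6.61, and St8sia6, a sialyltransferase, by 6.56. Ampd1, an AMP deaminase, fell by 6.53, Arhgap29, a GTPase activating protein, by 6.31 and Igfbp4, which binds insulin-like growth factors, by 6.51. Igfbp4 was at 1105, 1363 and 1006 CPM in naive cells against 19.8, 7.95 and 9.92 CPM in Tconv. Sox4 and St8sia6 fell less in Tconv replicate 1 than in the others, at 1.32 CPM of Sox4 against 0.152 and 0.329 CPM, and without that replicate their falls were 7.95 and 7.51. Dapk1 had no count in replicate 1 and fell by 6.37 without it.

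Genes of the naive state fell as a group. Of 30 genes for homing and quiescence 22 fell and 0 rose, against a background of 7.30% lower, with a median log2 fold change of −1.54, and without Tconv replicate 1 the count was 23 and the median −1.74. Ccr7, the receptor that guides T cells into lymph nodes, was at 129, 49.9 and 50.1 CPM in Tconv and at 1527, 1416 and 1419 CPM in naive cells (log2 fold change −4.24, adjusted p = 0.000397, edgeR quasi-likelihood test). Replicate 1 held more of it than the other Tconv, but all 3 lay far below naive cells, and the change without it was −4.83. S1pr1, the receptor for exit from lymphoid organs, fell by 1.52 and the quiescence factor Klf2 by 1.21. Of the transcription factors of resting T cells, Lef1 was at 259, 198 and 212 CPM against 1272, 1462 and 1353 CPM (−2.59), and Tcf7, the gene of TCF1, at 858, 582 and 591 CPM against 1753, 2271 and 1988 CPM (−1.55). Tcf7 and Lef1 thus kept a clear level in Tconv, without overlap with naive cells. The genome organiser Satb1 fell by 2.53 and the repressor Bach2 by 3.5. Atp1b1, a sodium pump subunit, fell by 6.18, Dapl1 by 5.83 (6.96 without Tconv replicate 1) and Ramp1, a receptor for a sensory neuropeptide when paired with its partner, by 4.22. Il7r, the receptor of the survival cytokine IL-7, was not called: it was at 593, 189 and 245 CPM in Tconv, above naive cells in replicate 1 and below them in the others, against 406, 449 and 431 CPM (−0.31, adjusted p = 0.595, and −0.95 without replicate 1).

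Genes of antigen-experienced T cells rose in their place. Of 39 such genes 36 rose and 0 fell, against 15.7% higher in the background, with a median of 4.09 (3.77 without Tconv replicate 1). Cx3cr1, a chemokine receptor of effector cells, was at 145, 169 and 157 CPM against 0.195 to 0.225 CPM and rose by 9.53. S100a4, a calcium-binding protein of motile cells, was at 209, 296 and 230 CPM in Tconv and at 0.0709, 0.0998 and 0.134 CPM in naive cells, a rise of 11.25. Lgals3, which encodes galectin-3, rose by 10.43 and Ccr2, a receptor for inflammatory chemokines, by 10.08. These genes were close to the floor in naive cells, whereas others started from a clear level. Il2rb, the β chain that serves the IL-2 and IL-15 receptors, rose by 5.73 to 1067, 1384 and 1350 CPM from 23.5, 25.7 and 23.6 CPM. Itgb1, the β1 integrin, rose by 4.86, Lgals1 by 3.30, the transcriptional regulator Id2 by 2.80 and Prdm1, the gene of Blimp-1, by 3.61. Bhlhe40, a transcription factor of cytokine-producing T cells, rose by 8.34 to 2803, 2412 and 1993 CPM.

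**Figure D2:**
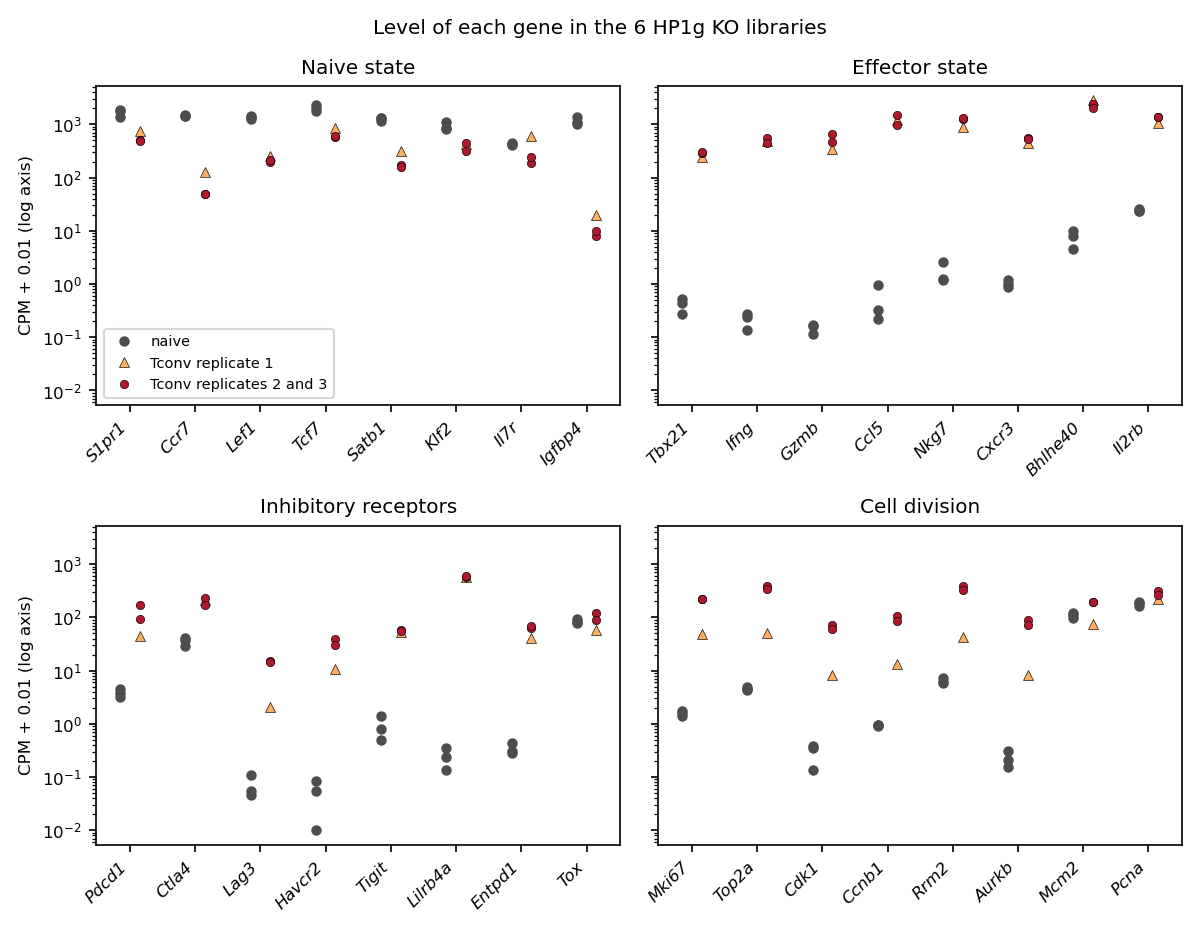
CPM of single genes in each library on a log axis, in 4 panels of 8 genes, with naive cells in dark points, Tconv replicate 1 as triangles and Tconv replicates 2 and 3 as lighter points. Gzmb and Tbx21 separate the groups by several log2 units in every library, whereas Il7r overlaps, and Mki67 and Top2a are lower in Tconv replicate 1 (49.3 and 50.2 CPM) than in the other Tconv.

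The Th1 programme rose in all 3 Tconv libraries. Of 24 Th1 genes tested 18 rose and 1 fell, with a median of 3.37. Tbx21, the gene of T-bet, was at 239, 292 and 299 CPM in Tconv and at 0.266, 0.424 and 0.515 CPM in naive cells (log2 fold change 9.47, SE 0.24, adjusted p = 5.955e-08, edgeR quasi-likelihood test). Ifng was at 476, 564 and 439 CPM against 0.230, 0.125 and 0.269 CPM and rose by 11.18 (SE 0.25, adjusted p = 5.066e-08). No Tconv library approached the naive range in either gene. The receptors through which IL-12 and IL-18 act rose with them: Il12rb1 by 6.29, Il12rb2 by 7.25, Il18r1 by 3.07 and Il18rap by 9.68. Stat4, which carries the IL-12 signal, was at 260, 284 and 274 CPM against 125, 154 and 139 CPM. Its log2 fold change of 0.99 was just inside the fold threshold (adjusted p = 0.000152), and it was called at 1.03 without Tconv replicate 1 and at 1.04 without naive replicate 2. The member that fell was Ifngr2, the signalling chain of the IFN-γ receptor, which was at 7.56, 1.502 and 2.69 CPM in Tconv against 154, 207 and 178 CPM in naive cells (−5.49, and −6.39 without Tconv replicate 1). Cxcr3, a receptor for chemokines induced by IFN-γ, rose by 8.99. Of 75 Th1 genes that the study compiled with a reference for each 70 were tested, 35 rose and 2 fell, and the median was 1.28. With Tconv replicate 1 left out 19 of the 24 Th1 genes and 39 of the 70 rose.

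Most tested genes of the Th17 and Th2 lists rose as well. In the Th17 list 14 of 15 tested genes rose and 0 fell, with a median of 5.03. Rora, a nuclear receptor that takes part in Th17 differentiation, was at 378, 306 and 302 CPM against 10.7, 9.66 and 11.9 CPM (4.95). Il17a was at 3.35, 4.75 and 1.60 CPM and had no count in naive libraries, so it was at least 152-fold higher. Naive cells held 1 count of Il23r, whose ratio of counts was 354 (95% counting interval 63.2 to 14040). Il1r1, the IL-1 receptor, was at 13.8, 9.47 and 9.66 CPM and Maf, a transcription factor of several effector lineages, at 89.2, 125 and 102 CPM, a rise of 5.03. The Th2 list had 8 of 11 tested genes higher and 1 lower, with a median of 2.18. Its summed level was nonetheless lower, at 920.1, 755.5 and 708.4 CPM in Tconv against 1088 to 1429 CPM in naive cells. Il4 was at 4.64, 5.12 and 4.34 CPM, at least 221-fold above naive cells, which had no count. Il13 reached at most 0.109 CPM and was too low to be tested. Gata3, the Th2 transcription factor, was at 233, 202 and 174 CPM against 120, 120 and 112 CPM, a change of 0.81 that did not pass the fold threshold. Il1rl1, the IL-33 receptor, rose by 8.40, and the chemokine receptors Ccr4 and Ccr8 by 4.72 and 2.18.

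Genes of regulatory and follicular helper T cells moved in both directions or in part. Among 12 Treg genes 5 rose and 4 fell, with a median of 1.14. Foxp3, the factor that defines Treg, fell from 6.57, 5.82 and 9.34 CPM in naive cells to 2.24, 1.89 and 2.43 CPM in Tconv (−1.71, adjusted p = 0.00113, edgeR quasi-likelihood test), and Gpr83 by 4.30. Ctla4, the inhibitory receptor that Treg share with activated cells, rose by 2.52, Nrp1 by 4.50, Il2ra by 3.07, Tnfrsf18 by 1.51 and Ikzf2, the gene of Helios, by 3.14. Of 11 genes of follicular helper cells 7 rose and 0 fell, with a median of 1.87. Their receptor Cxcr5 rose by 3.69, while Bcl6, the factor that defines them, was at 8.18, 11.4 and 10.9 CPM against 14.9, 17.4 and 14.99 CPM and did not pass the fold threshold (−0.61). Il21 was at 15.4, 99.5 and 72.6 CPM against at most 0.0709 CPM and rose by 10.26. Replicate 1 was the lowest of the Tconv in Il21, but above every naive library.

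Cytokine and chemokine genes rose in large part. Of 23 cytokine genes tested 17 rose and 0 fell (median 3.69). Tnf was at 106, 83.2 and 70.7 CPM against 13.2, 17.3 and 16.4 CPM (2.49), and Il2, the T cell growth factor, at 15.02, 12.7 and 16.97 CPM against 0.874 to 0.975 CPM (4.05). Csf2, the gene of GM-CSF, rose by 6.97 (8.29 without naive replicate 1) and Csf1 by 6.72. Il10, the inhibitory cytokine, was at 9.89, 18.3 and 27.8 CPM against at most 0.0749 CPM and rose by 8.71. Among the cytokine receptor and signalling genes 12 of 29 rose and 5 fell, with a median of 0.20. Cish and Socs2, feedback inhibitors of cytokine signals, rose by 4.15 and 8.32, and Il6ra, the IL-6 receptor, fell by 2.83.

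Cytotoxic genes were among the groups with the largest changes. Of 23 genes of cytotoxic granules, killer cell receptors and associated chemokines 20 rose and 0 fell, with a median of 4.77. Gzmb, the gene of granzyme B, was at 343, 458 and 650 CPM in Tconv and at 0.106, 0.150 and 0.157 CPM in naive cells (log2 fold change 11.80, SE 0.38, adjusted p = 6.719e-07, edgeR quasi-likelihood test). Gzma rose by 9.23 to 274, 130 and 276 CPM and Gzmk by 10.23 to 42.3, 89.5 and 154 CPM. Every Tconv library thus carried the 3 granzyme transcripts at levels well apart from naive cells. Prf1, which encodes perforin, the pore through which granzymes enter a target, was not called. It was at 29.9, 29.5 and 46.0 CPM in Tconv and at 38.7, 51.8 and 34.4 CPM in naive cells, with a log2 fold change of −0.22 (adjusted p = 0.442), and the ranges overlapped. Nkg7, a protein of granule exocytosis, rose by 9.48 and the chemokine Ccl5 by 11.38 to 1215, 979 and 1489 CPM. Ccl3 and Ccl4, chemokines that attract leukocytes, rose by 8.42 and 8.29, and the killer cell lectin-like receptors Klrk1 and Klrc1 by 9.54 and 9.08. The Klr genes resemble each other and can share reads. As naive libraries held few counts of these genes, the fitted rises of Ccl5, Gzmk and Klrc1 were 12.19, 10.85 and 10.79 without naive replicate 2, and that of Klrk1 was 8.83 without naive replicate 1 and 10.22 without naive replicate 2.

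Inhibitory receptors rose in most cases, and 3 of them were lower in Tconv replicate 1. Of 22 inhibitory receptor and ligand genes 15 rose and 1 fell, with a median of 2.74 (16, 1 and 2.94 without that replicate). The highest fold change in this list, 13.46, was that of Lilrb4b, whose product was not shown here to be inhibitory. Pdcd1, the gene of PD-1, was at 45.2, 170.6 and 94.1 CPM in Tconv and at 4.43, 3.15 and 3.83 CPM in naive cells (4.78, adjusted p = 0.00164, edgeR quasi-likelihood test). Lag3 was at 2.07, 15.3 and 14.8 CPM against at most 0.0998 CPM (7.51), and Havcr2, the gene of TIM-3, at 10.9, 38.8 and 29.9 CPM against at most 0.0749 CPM (9.46, and 8.75 or 10.20 without naive replicate 1 or 2). In each of these replicate 1 was the lowest Tconv but did not overlap with naive cells. Tigit was even across Tconv, at 53.1, 57.7 and 54.4 CPM against 0.478, 0.799 and 1.39 CPM (5.99). Entpd1, the ectoenzyme CD39, rose by 7.42. Of 23 genes of exhaustion and anergy 9 rose and 2 fell, and their median was 0.41. Tox, a factor of exhausted T cells, was at 57.3, 118 and 89.6 CPM against 81.0, 79.4 and 91.4 CPM, a change of 0.10 with overlapping ranges (adjusted p = 0.785), whereas its relative Tox2 rose by 7.13. The anergy genes Nt5e, Izumo1r and Egr2 had changes of 0.77, 0.18 and 0.41 and were not called, and the ubiquitin ligase Rnf128, also tied to anergy, rose by 3.72. Nr4a1, a factor induced by receptor signals, was at 843, 324 and 305 CPM against 707, 1076 and 760 CPM. It was not called (−0.77, adjusted p = 0.199), but fell by 1.40 without Tconv replicate 1 (adjusted p = 1.637e-05). Of the 104 exhaustion genes that the study compiled in the same way 95 were tested, of which 57 rose and 5 fell, with a median of 2.16.

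Receptors for migration moved in both directions, and costimulatory genes mostly rose. Of 22 chemokine and trafficking receptors 14 rose and 6 fell, with a median of 4.14. Cxcr6 and Cxcr3, which lead cells to inflamed tissue, rose by 8.79 and 8.99. S1pr5, a trafficking receptor of cytotoxic cells, was at 73.6, 37.3 and 68.7 CPM with 2 counts in naive cells (ratio of counts 4260, 95% counting interval 1179 to 35180). Ccr7 and S1pr1 fell as given above, and Cxcr4, the receptor for a bone marrow chemokine, by 1.10. Its fall was 1.0 without Tconv replicate 2 and 0.94 without naive replicate 2, which ended the call. Of 20 costimulatory genes 13 rose and 1 fell (median 1.5). Tnfrsf4, the gene of OX40, rose by 4.42, Icos by 1.87, Slamf7 by 5.83 and Cd80 by 5.79, while Cd28 was not called (0.37). Among 14 integrins 9 rose and 3 fell (median 1.20). Itga1, the collagen receptor chain, rose by 10.22 (10.97 without naive replicate 1), and Itga4 by 2.23. Itgae, the gene of CD103, was at 24.5, 1.85 and 3.85 CPM against 0.225 to 0.337 CPM. It rose by 5.16, by 3.36 without Tconv replicate 1, and its adjusted p was between 0.051 and 0.066 without any 1 of the naive replicates.

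**Figure D3:**
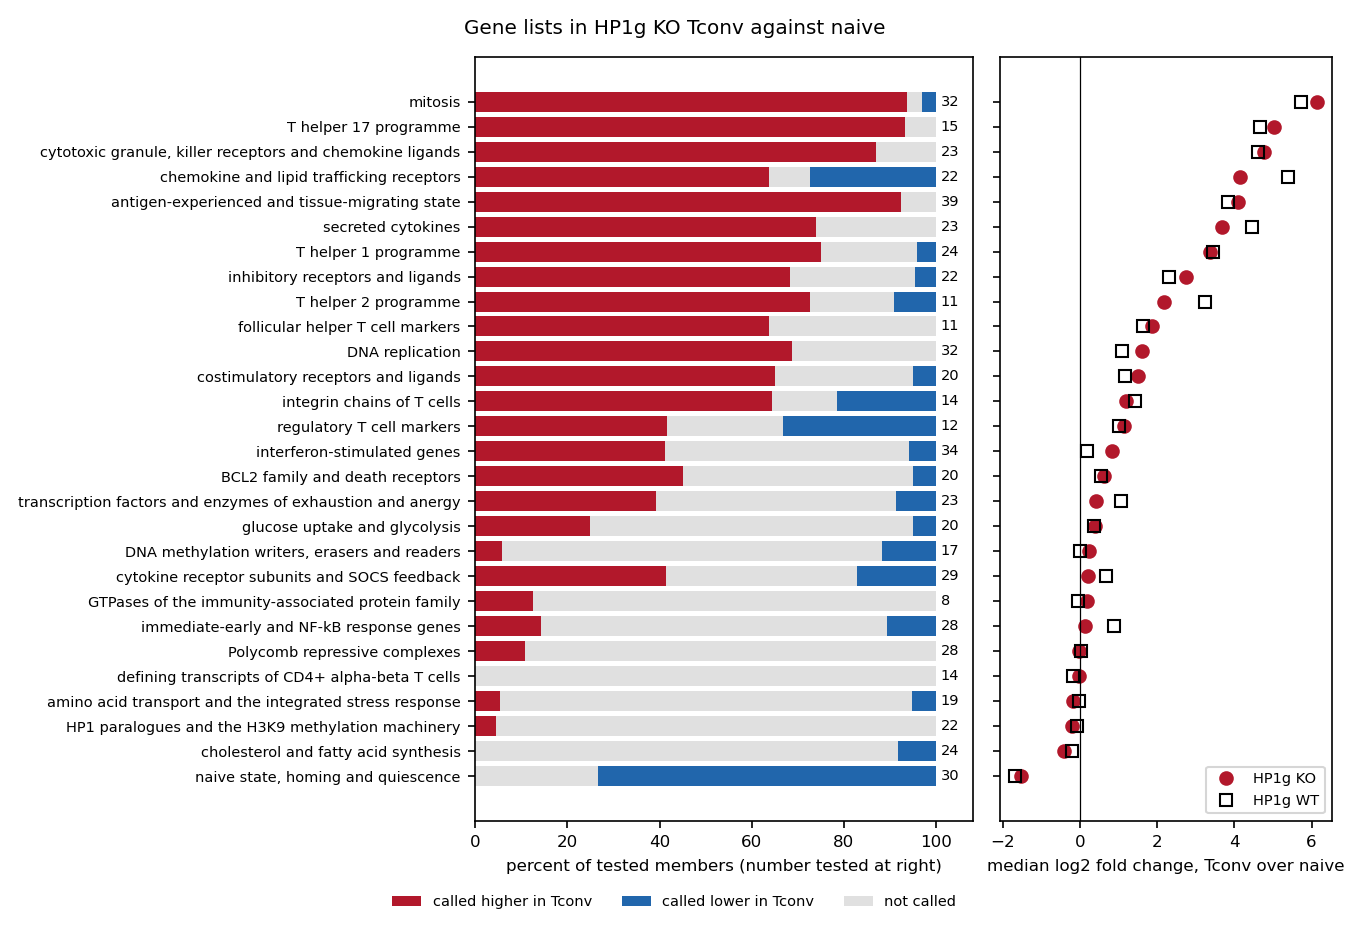
For 28 gene lists, the left part shows the percent of tested members called higher, called lower and not called in HP1γ-deficient Tconv, and the right part the median log2 fold change in HP1g KO and in HP1g WT. The mitosis list has the highest median (6.14 in KO and 5.72 in WT) and the naive state list the lowest of those shown (−1.54 and −1.68).

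Cell division genes rose, and most were lower in Tconv replicate 1 than in the other Tconv. Of 32 genes of mitosis 30 rose and 1 fell, with a median of 6.14 (31, 1 and 6.63 without Tconv replicate 1). Mki67, the gene of the proliferation marker Ki-67, was at 49.3, 221.3 and 219.6 CPM in Tconv and at 1.40, 1.75 and 1.57 CPM in naive cells (6.73, adjusted p = 0.00115, edgeR quasi-likelihood test). Top2a, the topoisomerase of dividing cells, was at 50.2, 386 and 336 CPM and rose by 5.82. Cdk1, the kinase that drives mitosis, was at 8.12, 72.4 and 59.8 CPM against 0.125 to 0.372 CPM (7.37), and Ccnb1, the gene of its partner cyclin B1, at 13.5, 104 and 85.1 CPM (6.23). In each gene replicate 1 was the lowest Tconv and yet above every naive library. In this library 31 of the 32 mitosis genes were at least 1 log2 unit below both other Tconv. The summed level of the list was 732.5 to 916 CPM in naive cells, of which Smc4, a condensin subunit and the member that fell, made the greater part, and 746, 3718 and 3247 CPM in Tconv. Of 32 genes of DNA replication 22 rose and 0 fell (median 1.61). The count was 27 without Tconv replicate 1 (median 1.91) and 13 without naive replicate 1 (median 1.58). Rrm2, a subunit of the enzyme that makes deoxynucleotides, was at 42.7, 390 and 320 CPM and rose by 5.32, and Mcm10 rose by 7.18. Mcm2, a subunit of the replicative helicase, was at 76.5, 197 and 198 CPM against 109, 121 and 99.1 CPM and was not called (0.55, adjusted p = 0.282).

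The promoters of 3 mitosis genes and, for contrast, of a replication gene and 2 cytotoxic genes show the letters that were counted over all promoters. The windows are RefSeq sequences of GRCm38.p6 from 250 bases before to 50 after the start of the gene, 1 a gene, written 5′ to 3′ on the strand of the gene. Capitals mark matches on either strand. In Mki67, Top2a and Cdk1 they mark TTTGAA, the core of the cell cycle genes homology region (CHR), and CCAAT, the box bound by NF-Y. In Rrm2 they mark CCAAT, and TTCCCGC, an E2F site that was also searched there, does not occur in its window. In Gzmb they mark the AP-1 site TGANTCA and in Nkg7 the T-box site AGGTGTGA. The windows of Gzma, Gzmk, Prf1, Il12rb2, Il18r1 and Stat4, searched alike, held neither of these sites. That of Ccnb1 held CCAAT but no TTTGAA.
Mki67 promoter, chr7:135716330-135716629, minus strand: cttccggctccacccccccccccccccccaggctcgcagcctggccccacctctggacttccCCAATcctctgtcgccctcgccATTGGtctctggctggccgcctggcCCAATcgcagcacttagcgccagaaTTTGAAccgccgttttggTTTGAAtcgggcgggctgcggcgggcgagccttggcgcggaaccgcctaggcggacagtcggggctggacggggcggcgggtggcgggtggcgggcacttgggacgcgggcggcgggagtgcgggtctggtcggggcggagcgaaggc
Top2a promoter, chr11:99024140-99024439, minus strand: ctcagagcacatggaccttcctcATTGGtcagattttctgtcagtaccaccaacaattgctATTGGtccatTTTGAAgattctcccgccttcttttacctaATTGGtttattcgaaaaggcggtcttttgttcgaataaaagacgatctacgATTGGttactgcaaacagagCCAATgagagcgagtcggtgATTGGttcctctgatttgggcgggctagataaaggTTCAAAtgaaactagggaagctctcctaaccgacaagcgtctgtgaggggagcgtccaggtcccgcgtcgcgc
Cdk1 promoter, chr10:69352863-69353162, minus strand: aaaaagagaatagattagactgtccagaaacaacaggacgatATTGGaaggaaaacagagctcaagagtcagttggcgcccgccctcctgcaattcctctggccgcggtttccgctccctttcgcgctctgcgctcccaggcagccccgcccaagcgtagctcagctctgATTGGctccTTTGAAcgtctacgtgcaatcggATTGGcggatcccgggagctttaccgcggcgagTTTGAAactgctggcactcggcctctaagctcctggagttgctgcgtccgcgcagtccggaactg
Rrm2 promoter, chr12:24708004-24708303, plus strand: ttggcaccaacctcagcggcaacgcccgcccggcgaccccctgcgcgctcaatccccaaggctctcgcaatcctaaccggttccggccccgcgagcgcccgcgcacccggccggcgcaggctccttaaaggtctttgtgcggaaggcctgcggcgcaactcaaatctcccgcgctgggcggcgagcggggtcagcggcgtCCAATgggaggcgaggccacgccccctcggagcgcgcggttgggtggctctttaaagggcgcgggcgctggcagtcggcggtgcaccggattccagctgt
Gzmb promoter, chr14:56262285-56262584, minus strand: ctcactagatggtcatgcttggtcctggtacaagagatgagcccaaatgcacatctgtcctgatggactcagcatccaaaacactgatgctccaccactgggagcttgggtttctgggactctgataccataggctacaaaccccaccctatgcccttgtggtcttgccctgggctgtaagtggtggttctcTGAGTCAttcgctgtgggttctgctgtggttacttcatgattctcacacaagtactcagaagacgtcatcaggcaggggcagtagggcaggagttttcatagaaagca
Nkg7 promoter, chr7:43436888-43437187, plus strand: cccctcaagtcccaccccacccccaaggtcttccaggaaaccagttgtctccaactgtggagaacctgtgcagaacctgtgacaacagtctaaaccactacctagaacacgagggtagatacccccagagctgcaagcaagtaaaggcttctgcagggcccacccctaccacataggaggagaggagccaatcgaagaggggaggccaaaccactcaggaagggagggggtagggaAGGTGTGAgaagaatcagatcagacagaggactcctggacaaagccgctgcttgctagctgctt

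TTTGAA was present in 21 of the 27 mitosis genes with a promoter window, or 77.8%, against 12.4% of the windows of all 10331 tested genes and 11.1% of those of replication genes. CCAAT was present in 85.2% of mitosis, 59.3% of replication and 60.0% of Th1 windows, against 39.4% of all. TTCCCGC had the opposite pattern and was present in 51.9% of replication windows, in 3.70% of mitosis windows and in 8.46% of all. The AP-1 letters were present in 4 of 19 windows of cytotoxic genes, or 21.1%, in 7.58% of the windows of all genes called higher, in 5.52% of those called lower and in 4.92% of all. The T-box letters were present in 1.54% of windows of genes called higher, in 0.552% of those called lower and in 0.949% of all. Among cytotoxic genes 1 of 19 windows held them, and among Th1 genes 1 of 20. CTTTGAT, a TCF/LEF site, was found in 0 of 26 windows of the naive state genes and in 2.53% of all, and no AP-1 or T-box letters were found in the windows of Tbx21 and Ifng. These matches describe the letters of the windows and say nothing of the binding of a factor.

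Genes of metabolism changed little as groups, with single members that stood out. Of 20 glycolysis genes 5 rose and 1 fell (median 0.40). Hk2, the inducible hexokinase, was at 8.92, 10.9 and 8.08 CPM against 0.200 to 0.283 CPM (5.29), and the glucose transporter Slc2a3 rose by 1.77. Ldhb, a lactate dehydrogenase subunit, fell by 1.78, while Ldha was not called (0.26). Of 24 genes of cholesterol and fatty acid synthesis 0 rose and 2 fell (median −0.41), and 4 fell without Tconv replicate 2 or naive replicate 3. Of 19 genes of amino acid supply and stress 1 rose and 1 fell (median −0.18), the latter being Trib3, which fell by 2.0. The shares called in the last 2 lists were below the 23.1% of all genes.

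Genes that respond to interferon rose in part. Of 34 such genes 14 rose and 2 fell, with a median of 0.82. Mx1, an antiviral GTPase, was at 27.1, 30.0 and 41.8 CPM against 0.381 to 0.724 CPM (6.07), Gbp3 rose by 3.30, Rsad2 by 2.62 and Oas1a by 2.33. Isg15, a ubiquitin-like modifier, rose by 1.54. Of 28 immediate early genes, which report recent receptor signals, 4 rose and 3 fell, with a median of 0.13. Without Tconv replicate 1 the number that fell was 6 and the median −0.13, and without Tconv replicate 2 they were 1 and 0.19. Fos was at 1142, 1005 and 922 CPM against 896, 1065 and 801 CPM (0.17), and Jun fell by 1.14 (adjusted p = 0.000844, edgeR quasi-likelihood test). The summed level of the 28 genes was 18700 to 22060 CPM in naive cells and 25980, 16600 and 16060 CPM in Tconv, so replicate 1 lay above the naive range and the others below it. Of 20 apoptosis genes 9 rose and 1 fell (median 0.62). The survival genes Bcl2a1b and Bcl2a1d, near copies that can share reads, rose by 2.83 and 4.22, the death gene Pmaip1 by 5.33, and Bcl2 was not called (−0.42).

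Chromatin regulators were near the level of naive cells. Of 22 genes of HP1 proteins and of the enzymes and partners of histone H3 lysine methylation 1, Cbx5, rose and 0 fell, with a median of −0.21. Suv39h1 and Setdb1, methyltransferases whose mark HP1 proteins read, had changes of −0.34 and −0.35. The change of Trim28, a corepressor that binds HP1 proteins, was −0.17. Of 28 Polycomb genes 3 rose and 0 fell (median −0.04). Ezh2, the methyltransferase of dividing cells, was at 51.4, 104 and 95.4 CPM against 28.3, 31.0 and 27.1 CPM (1.56), while its relative Ezh1 was not called (−0.09). Of 17 genes of DNA methylation 1 rose and 2 fell, with 0 rising without naive replicate 1, 2 rising without Tconv replicate 2 or 3 and 1 falling without Tconv replicate 2. Uhrf1, which brings the maintenance methyltransferase to replicated DNA, rose by 4.13, with 20.8, 161 and 144 CPM, and its adjusted p without naive replicate 1 was 0.0508. Tet1, a demethylating enzyme, fell from 31.9, 32.6 and 35.4 CPM to 3.70, 4.03 and 4.86 CPM (−2.97), and Dnmt1 was not called (0.44).

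Ribosomal protein genes shifted downward by a small amount, and several receptor families rose. Of 86 cytosolic ribosomal protein genes 81 had a negative log2 fold change, 73 were lower by the adjusted p alone and 8 also passed the fold threshold (median −0.72). Of 18 mitochondrially encoded genes none was called (median −0.32), and of 78 nuclear genes of the respiratory chain 1 rose. Their directions were the same under RLE size factors and under library totals. Kinesins rose in 16 of 26 cases (median 1.61), interleukin receptors in 17 of 31 (median 2.52) and members of the TNF and TNF receptor superfamilies in 14 of 24 (median 1.41). Of 315 Zfp genes, many of which encode repressors of transposable elements, 24 rose and 21 fell, with a median of −0.18. Of 214 solute carriers 39 rose and 17 fell (median 0.17). The counts of Zfp genes and solute carriers are to be read against 15.7% higher and 7.30% lower over all tested genes. Of 9 Gimap genes, GTPases of lymphocyte survival, Gimap7 rose by 2.15 and the others were not called.

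Genes that rose lay side by side in several places. In the order of protein-coding genes that were tested, 34 runs of at least 4 neighbours were called higher and 3 were called lower. As more genes were called higher than lower, these counts do not compare the directions. The number of runs that calls in random order would give was not determined. The longest held 12 genes in GRCm39 chr6:129319654-131365448 and included Klrd1, Klrk1 and Klrc1, with log2 fold changes from 1.06 to 9.54. A run of 7 S100 genes lay in chr3:90416091-90603071, from S100a13 to S100a9, and a run of 6 genes with Ccl5, Ccl9, Ccl6, Ccl3 and Ccl4 in chr11:83402562-83555509. Neighbours of such families are similar in sequence, were named after their values had been seen, and were not counted as independent. Of protein-coding genes 16.9% rose and 7.03% fell, and of lncRNA genes 16.1% and 8.99%. The median exonic length was 5399 bases in protein-coding genes called higher, 6166 in those called lower and 6445 in those not called.

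Markers of other cell types were low but rose in part in Tconv, and their part in the results was not tested. Of 10 myeloid markers 8 rose and 0 fell (5 rose without naive replicate 1), and their sum was 41.2 to 52.3 CPM in naive cells and 149, 116 and 165 CPM in Tconv. Lyz2, the lysozyme of macrophages, was at 15.2, 11.5 and 26.4 CPM against 1.43 to 1.87 CPM. Dendritic cell and MHC class II markers, 7 of 10 tested, rose in 3 cases and summed to 22.7 to 32.3 CPM in naive cells and to 38.0, 136 and 293 CPM in Tconv. All 7 were called without Tconv replicate 1, among them Cd74 and H2-Ab1. Of 6 erythroid markers 5 rose, a count that was 2 under RLE size factors, 6 without Tconv replicate 1 and 0 without Tconv replicate 3 or any 1 of the naive replicates, and their sum was 64.0 to 78.6 CPM in naive cells and 3372, 158 and 308 CPM in Tconv. Hbb-bs, a haemoglobin gene that shares reads with its copy Hbb-bt, was at 1472, 68.1 and 131 CPM against 26.8 to 32.8 CPM. Its rise of 4.25 (adjusted p = 0.0453, edgeR quasi-likelihood test) was 1.79 without Tconv replicate 1, and its adjusted p was between 0.0548 and 0.139 without Tconv replicate 3 or any 1 of the naive replicates. HP1g WT Tconv spanned 76.35 to 4974 CPM in the same sum. Of 8 B cell markers 1 rose and 5 fell, with sums of 9.30 to 11.3 CPM in naive cells and 13.5, 10.8 and 6.83 CPM in Tconv, and Ms4a1, the gene of CD20, reached at most 0.117 CPM in Tconv. Of 6 markers of CD8, NK and γδ T cells 3 rose and 1 fell, and their sum was 33.4 to 40.3 CPM in naive cells and 26.5, 15.5 and 22.7 CPM in Tconv, with Cd8a at 0, 0.740 and 0.920 CPM. Platelet markers, of which 1 of 5 was tested, summed to 0.524 to 1.21 CPM and to 1.40, 1.20 and 1.88 CPM, and Pf4 reached at most 0.261 CPM. No member of the myeloid, erythroid, B cell or CD8, NK and γδ lists was at 0 in all naive libraries.

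**Figure D4:**
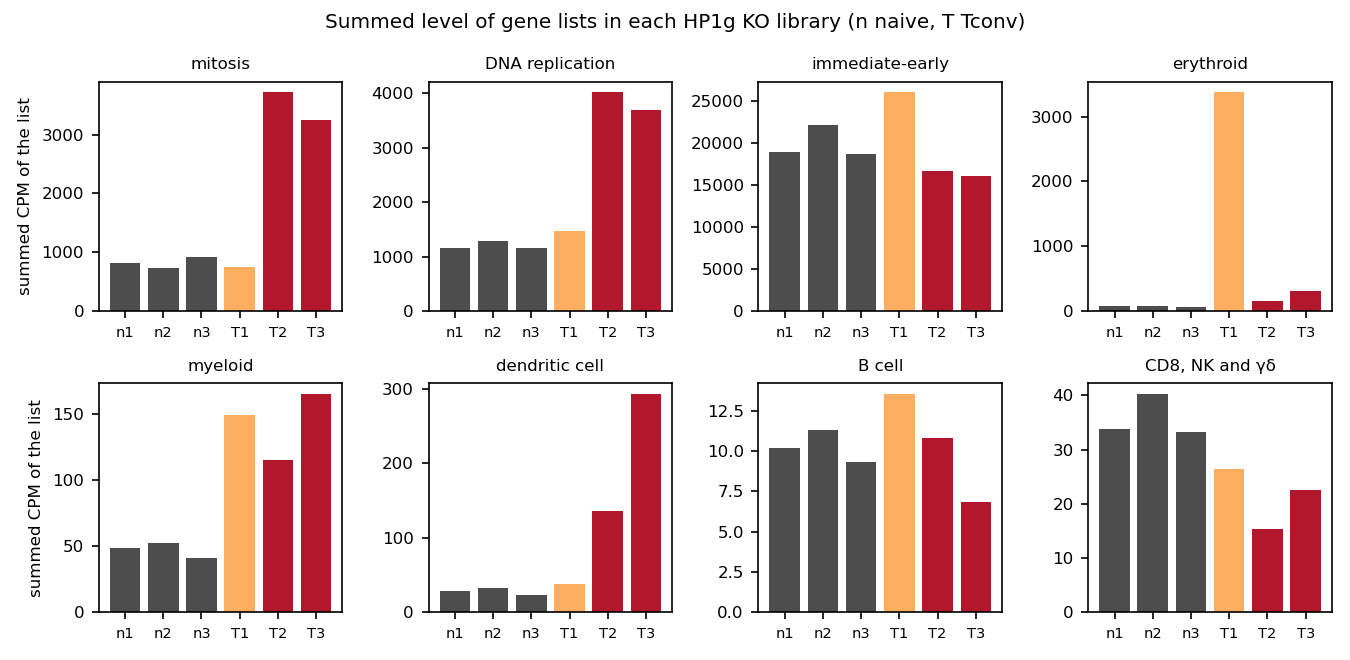
Summed CPM of 8 gene lists in each of the 6 libraries, as bars that start at 0. Tconv replicate 1 has the lowest mitosis sum of the Tconv (746 CPM) and the highest erythroid sum (3372 CPM).

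The same activation was measured in HP1g WT cells, which share no library with the KO cells. In WT 3723 of 15812 genes were called, or 23.5%. Across the 15354 genes tested in both genotypes the log2 fold changes had a Pearson r of 0.928 and a Spearman rho of 0.802, which describes genes and not replicates. Of the genes called in HP1γ-deficient cells 72.4% were also called in WT, and of those called in WT 71.3% in HP1γ-deficient cells, and 3 of these 2654 shared calls had opposite signs. The medians of the lists in both genotypes are given as a description, and those in WT cover only the members tested there. They were 4.09 in KO and 3.83 in WT for antigen experience, 3.37 and 3.45 for Th1, 4.77 and 4.61 for the cytotoxic list, 2.74 and 2.31 for inhibitory receptors and −1.54 and −1.68 for the naive state. Wider apart were the medians of chemokine receptors (4.14 in KO and 5.38 in WT), Th2 genes (2.18 and 3.24), cytokines (3.69 and 4.45), immediate early genes (0.13 and 0.88), exhaustion and anergy (0.41 and 1.06), interferon genes (0.82 and 0.19) and DNA replication (1.61 and 1.08). The difference between the genotypes in the response to activation was tested as an interaction, which called 4 of 17024 genes, or 0.0235%, by edgeR's quasi-likelihood test, with 1344 genes at an unadjusted p under 0.05. None of the members of the 34 gene lists was called. A call that is missing here does not show that the responses were equal, and leaving out 1 library gave 0 to 12 calls, with 0 without KO Tconv replicate 1, WT Tconv replicate 1 or 2, or any KO naive replicate and 12 without WT Tconv replicate 3.

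**Figure D5:**
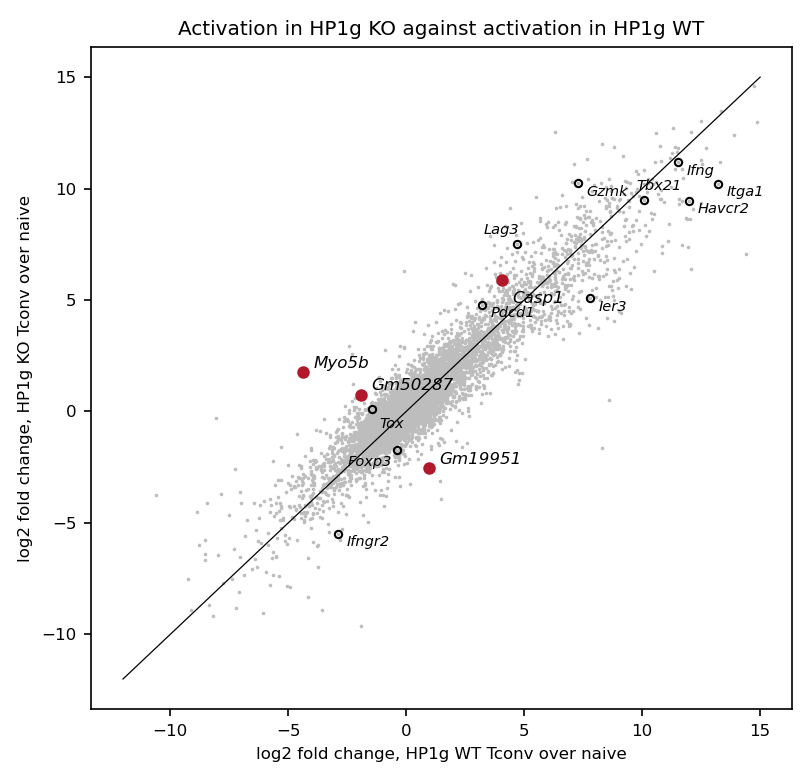
Log2 fold change of Tconv against naive cells in HP1g WT on the x axis and in HP1g KO on the y axis for genes tested in both, with the diagonal of equal change. The points follow the diagonal (Pearson r of 0.928 across genes), and the 4 genes of the interaction are marked in red.

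Casp1, the gene of the protease that processes IL-1β and IL-18, met the rule for naming among the 4. In HP1γ-deficient cells it was at 179, 189.5 and 179 CPM in Tconv and at 3.65, 2.82 and 2.69 CPM in naive cells, and in WT at 140 to 167 CPM in Tconv and 6.80 to 11.35 CPM in naive cells. The KO libraries were thus the higher in Tconv and the lower in naive cells, without overlap in either. The rise in KO exceeded that in WT by 1.89 on the log2 scale (SE 0.27, adjusted p = 0.0467, edgeR quasi-likelihood test). The other 3, singled out after their values were seen, were low or unnamed transcripts. Myo5b, an unconventional myosin, had 1.42, 0.871 and 0.854 CPM in KO Tconv and at most 0.0228 CPM in WT Tconv, against 0.266 to 0.395 CPM in all naive libraries. WT Tconv held 2 counts of it in all, under the floor of a library, and its ratio of naive over Tconv counts in WT was 24.2 with a 95% counting interval of 6.31 to 206, so the size of the difference in response is poorly known. Gm19951 was at 26.8 ± 6.12 CPM (SD, n = 3) in KO and 3.75 ± 0.983 CPM in WT naive cells and differed in response by −3.48, and Gm50287 differed by 2.71. The kit does not mark the strand, so reads of overlapping or antisense genes cannot be told apart in such transcripts.

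HP1α-deficient cells, from mice that lack Cbx5 in all tissues, were activated in the same model. Across 15274 genes the log2 fold changes of the 2 mutants had a Pearson r of 0.908 and a Spearman rho of 0.774, and 63.6% of the genes called in HP1γ-deficient and 75.2% of those called in HP1α-deficient cells were shared. A test of the difference between the lines called 98 of 17047 genes, or 0.575%. It compares mice of different lines and experiments, so line and gene cannot be told apart, and leaving out 1 library gave 22 to 447 calls, the highest without HP1g KO Tconv replicate 1 and 325 without HP1a KO naive replicate 1. Smpdl3b, a phosphodiesterase of membrane lipids, was at 31.3, 56.0 and 40.7 CPM in HP1γ-deficient Tconv and rose by 4.50 more than in HP1α-deficient cells (adjusted p = 0.0442, edgeR quasi-likelihood test). In HP1g WT cells Smpdl3b was at 24.7, 24.05 and 33.1 CPM in Tconv and at 0.0994 to 0.158 CPM in naive cells. It was not called in the interaction with genotype. Trim16, a ubiquitin ligase, rose in both, but by 3.41 less in HP1γ-deficient cells, where naive cells already held 14.2, 15.3 and 15.8 CPM against 0.887 to 1.27 CPM (adjusted p = 0.000184). HP1g WT naive cells held 10.17 to 15.02 CPM of Trim16, which was not called in the interaction with genotype either.

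Some of these transcripts were also measured in Tconv of the same genotype recovered with co-injected Treg, for which 2 libraries are in use. Pdcd1 was at 182 to 561 CPM there, above the 3 Tconv libraries described here, and Lag3 at 21.6 to 59.4 CPM. Tbx21 was at 96.0 to 174 CPM, below the 239 CPM of the lowest of the Tconv without Treg, and Ifng at 334 to 494 CPM, a range that overlapped with it. These levels are a description, without a test.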

How the data were processed

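RNA-seq was performed on CD4+ T cells with the SMART-Seq v4 PLUS kit and paired reads on a NovaSeq system. After trimming with Trim Galore and Cutadapt, the authors used STAR for alignment to GRCm39, an Ensembl annotation, and Salmon for quantification, all within nf-core/rnaseq. The authors deposited estimated counts per gene, without scaling or filter, for 56748 genes and 36 libraries. Of the values 82.9% were whole, since Salmon shares out reads that fit more than 1 gene, and near copies have less certain counts.

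Estimated counts were rounded. HP1g KO Tconv and naive libraries (n = 3 each) were compared with edgeR 4.0.16 (R 4.3.3): TMM normalisation, filterByExpr and the robust quasi-likelihood test, fitted on the 6 libraries. P-values were adjusted after Benjamini and Hochberg over every gene tested, and calls required an adjusted p below 0.05 together with a log2 fold change of more than 1 in size, as in the study. HP1g WT was fitted alike, and the interaction of genotype or line with activation was fitted on 12 libraries. SE denotes the standard error of a log2 fold change. Levels were normalised over 35 libraries, without replicate 3 of HP1g KO Tconv with Treg, which the authors excluded. The code was tested on simulated counts. Where 1 group had no count, the fold is a bound against 3 counts over that group, and with 1 to 3 counts it is a ratio of counts with a 95% interval.

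The comparison, gene lists and naming rule were chosen with earlier results of these data known, so no list is independent support for a pattern. The 34 lists written for this comparison hold 593 distinct genes and overlap, and 2 further lists are those of the study, whose exhaustion list had 102 of 104 genes matched, 12 of them by a synonym. Named were Cbx3, Cbx1 and Cbx5, core members of each list whatever their result, up to 4 further called members of a list, and the 8 highest and 8 lowest fold changes. The latter had to be called, to average 5 CPM or more and to separate the groups, and numbered pseudogenes, RIKEN clones, predicted genes and receptor or immunoglobulin segments were excluded. In the 2 difference tests the 4 highest and 4 lowest genes were named under the same conditions. Lck, Smc4 and the genes of neighbouring runs were named after their values had been seen. Some genes that the rule names are not reported here. Gene positions are those of GENCODE on GRCm39, which lacked 94 of the tested genes, and promoter windows are those of RefSeq on GRCm38.p6, matched by symbol. Alternatives were DESeq2 (version 1.42.0 here, another version in the study), RLE size factors, library totals, other filters and fold thresholds, all libraries of the line in 1 fit, receptor segments left out, the replicate number as a block and each library left out in turn.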

Additional observations from a re-analysis of the deposited data

Results flagged for a closer look

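The response to activation differed between genotypes or lines by a test of the difference itself in the following genes, and the cause was not tested. Activation in HP1g KO minus that in HP1g WT was 6.16 for Myo5b, 1.89 for Casp1, −3.48 for Gm19951 and 2.71 for Gm50287 on the log2 scale, with adjusted p-values of 0.024, 0.0467, 0.024 and 0.024 by edgeR's quasi-likelihood test. The value of Myo5b is a fitted one that depends on the prior count, as WT Tconv held 2 counts of it. The numbers of calls in this test ran from 0 to 12 when 1 library was left out.

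Activation in HP1g KO minus that in HP1a KO was 4.50 for Smpdl3b, 2.66 for Osgin1, 2.30 for Spo11 and 1.76 for Blm. It was −6.05 for St6galnac2, −3.71 for Rab4a, −3.41 for Trim16 and −3.03 for Lbp. Osgin1, tied to oxidative stress, was at 50.4, 24.5 and 28.0 CPM in HP1γ-deficient Tconv, and Spo11, a meiotic recombinase, at 13.9, 10.6 and 13.1 CPM. St6galnac2, a sialyltransferase, and Rab4a, a GTPase of endosomes, had 52.3 to 60.6 and 20.3 to 25.7 CPM in HP1γ-deficient naive cells, and Rab4a had 2.23 to 3.83 CPM in HP1α-deficient naive cells. Lbp, which binds lipopolysaccharide, fell by 4.53 in HP1γ-deficient and by 1.52 in HP1α-deficient cells. In HP1g WT cells the log2 fold changes of Lbp, Spo11, Osgin1 and Blm were −4.35, 1.32, 4.82 and 0.85. HP1g WT naive cells held 19.6 to 23.7 CPM of Rab4a. They held 43.4, 101.4 and 0.158 CPM of St6galnac2. None of these genes was called in the interaction with genotype, and whether line or gene underlies the differences was not tested.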

How the results depend on the processing

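Of 3668 genes called between HP1γ-deficient Tconv and naive cells, the count was 6538 with no fold threshold and 2338 with a test against a minimal fold change, which was 2232 in WT, and within 1.5 times under every other setting, from 2783 with at least 1 CPM in 3 libraries to 4198 by DESeq2. Leaving out 1 library gave 3290 to 4473 calls in KO and 3196 to 3665 in WT. The interaction with genotype had 4 calls, 103 by DESeq2, 32 with no filter on low counts and 0 to 12 when 1 library was left out. The difference between lines had 98 calls, 419 by DESeq2 and 22 to 447 with 1 library left out. Counts over the gene lists ran from 272 to 335 and over the families, for which alternatives were chosen after seeing the data, from 193 to 273 with 1 library left out. Among 3692 values of 231 named genes under the alternatives, 3539 stayed on their side of the thresholds, 104 lost and 49 gained a call, and 0 reversed. Replicate numbers did not pair the libraries (correlations of deviations 0.0227, 0.107 and −0.0491 in KO). With the replicate block 3440 genes were called in KO, 0 in the interaction and 64 between lines. Genes near the floor of 3 counts in naive cells have fold changes that depth limits.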

Other observations

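Gene families chosen after their values were seen are given here as a description. All 11 tested killer cell lectin-like receptor genes rose, with a median log2 fold change of 7.86 in HP1γ-deficient and 7.74 in WT cells. All 9 tested S100 genes rose (median 3.15), as did all 4 Ifitm genes, which encode membrane proteins that restrict virus entry (median 8.30), and all 5 granzyme genes (median 9.23). Of 15 Serpin genes, among them inhibitors that protect a cell from its own granzymes, 10 rose and 0 fell, with a median of 6.90 in HP1γ-deficient and 2.90 in WT cells. WT medians cover only the members tested in WT. A difference of these families between the genotypes was not tested as a family, and no member was called in the interaction with genotype. Members of each family resemble each other and can share reads.

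Of 23 Trbv segments, on one of which, Trbv19, the Tconv were sorted, 17 fell and 2 rose. Of 106 Trav segments, on which the cells were not sorted, 32 fell and 1 rose, with a median of −0.85. Among 45 histone genes 10 rose and 4 fell, with a median of 0.26.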
